A study of Mus musculus with 36 samples.

Results

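The comparison described here is that of adrenalectomized (ADX) with sham-operated mice at circadian time 16 h (CT16), measured by RNA sequencing of the cochlea, the coiled part of the inner ear that detects sound. It rests on 6 of the 36 libraries of the study: the 3 whose labels give an adrenalectomized animal at CT16 and the 3 whose labels give a sham operation at the same time. All animals were of the strain CBA/Sca and 12 weeks old, so both groups differ, as far as the labels say, only in the removal of the adrenal glands. The other 30 libraries, 3 for each status at the remaining 5 times, were used only to estimate the spread between libraries and to ask whether a difference at CT16 departs from those at the other times, which were spaced by 4 h. The labels do not say whether the 3 libraries of a group came from separate animals, so the p-values below measure the spread between these samples.

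The adrenal cortex releases glucocorticoids in a daily rhythm, and these hormones bind the glucocorticoid receptor, which moves into the nucleus and raises the transcription of genes such as Fkbp5, Tsc22d3 and Per1. The endoplasmic reticulum folds secreted and membrane proteins with a set of chaperones and disulfide isomerases, and the transcription factors ATF6 and XBP1 raise these chaperones together through an element of their promoters called the endoplasmic reticulum stress response element. Heat shock factors do the same for the chaperones of the cytosol and mitochondria, and interferons raise a further set of antiviral genes through the interferon-stimulated response element.

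The CT16 libraries held between 21908906 and 28963757 counts. The cochlear label was matched by its marker genes, given in CPM (counts of a gene scaled to an equal library total). The 20 hair cell genes were all detected in each library and summed to 345 to 444 CPM in ADX and 349 to 406 CPM in sham. The 15 genes of the stria vascularis, the ion-pumping epithelium of the cochlear duct, summed to 5538 to 5702 CPM in ADX and 5315 to 5698 CPM in sham. Transcripts of blood cells were present in all 6 libraries. The 15 erythroid genes summed to 20667 to 27141 CPM in ADX and 20907 to 28087 CPM in sham. The 15 B lymphocyte genes summed to 2634 to 3160 CPM in ADX and 2499 to 2880 CPM in sham. Of the 6 libraries, 3 stood apart by transcripts of a further tissue. They are called below the 3 libraries that held other tissue. ADX library 2 had a summed level of 348 CPM over 17 skeletal muscle genes, against 119.5 to 172 CPM in the other 5 libraries. Sham library 3 had 1665 CPM over 10 pituitary genes, against 96.2 to 144 CPM in the others, with Gh, the growth hormone gene, at 1180.3 CPM, and it alone held the secreted epithelial genes Bpifb1 (599 CPM) and Dmbt1 (282 CPM) above 1 CPM. Sham library 2 had 8828 CPM over 12 genes of the choroid plexus, the epithelium that makes cerebrospinal fluid, against 191 to 250.5 CPM in the others, with Enpp2, which encodes autotaxin, at 2914 CPM. The gene lists are therefore described also without ADX library 2 and sham library 3, and without these and sham library 2. The second of these leaves 1 sham library, whose variation is assumed to be that of the other groups. That library, sham library 1, was itself the highest of the 6 for 13 of 14 oligodendrocyte and astrocyte genes. The median log2 fold change (ADX minus sham) of that list was 0.04 over all 6 libraries and -0.58 with sham library 1 as the only sham library. Sham library 1 is therefore not taken as free of other tissue.

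**Figure D1:**
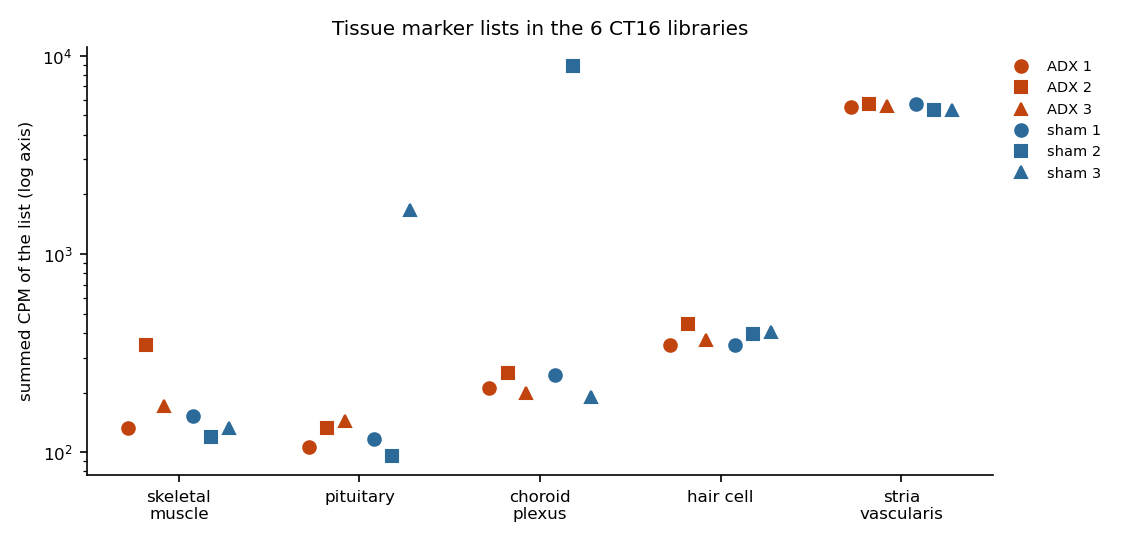
Summed CPM (log axis) of 5 tissue marker lists in each of the 6 CT16 libraries, ADX in orange and sham in blue. ADX 2 stands above the others for skeletal muscle, sham 3 for pituitary and sham 2 for choroid plexus genes, while the hair cell and stria vascularis sums lie close together.

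No gene passed an adjusted p of 0.05 between ADX and sham at CT16 in edgeR's quasi-likelihood test (0 of 22556 genes, 0% called; lowest adjusted p 0.0823). At an unadjusted p under 0.05 there were 1794 genes (7.95%), 909 of them with a higher level in ADX (4.03%) and 885 with a lower level (3.92%). DESeq2, run on the same 36 libraries, called 20 genes at an adjusted p under 0.05 (0.212% of the 9435 genes for which it gave one), and limma-voom called 0 with 1738 genes at an unadjusted p under 0.05. The CPM of the 3 ADX libraries lay wholly above those of the 3 sham libraries for 1601 genes (7.1%) and wholly below for 1465 (6.49%). The median log2 fold change of all tested genes, given throughout as ADX minus sham, was 0.01, and 52.5% of the genes had a positive one. Without ADX library 2 and sham library 3, 957 genes (4.24%) had an unadjusted p under 0.05, 1.91% of all tested genes higher in ADX and 2.34% lower. Without sham library 2 as well there were 878 (3.89%), 1.8% higher and 2.09% lower. In both cases 0 genes passed the adjusted threshold.

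Genes of protein folding in the endoplasmic reticulum had lower mean levels in ADX than in sham cochleae at CT16. Of the 17 genes of this list, 17 had a negative log2 fold change, 15 of them at an unadjusted p under 0.05, where 3.92% of all tested genes were lower at that p. For 16 every ADX library lay below every sham library, where 6.49% of all tested genes did so. The median log2 fold change was -0.24, with members from -0.44 to -0.01, against a median of 0.01 over all tested genes. No member passed the adjusted threshold in edgeR (lowest adjusted p 0.24), while 6 of them were among the 20 genes DESeq2 called, which is 30% of those calls and 35.3% of the list. In bulk tissue, fewer cells of a type that expresses these genes and less RNA per cell cannot be told apart. The macrophage and monocyte list also had 15 of 16 genes negative, 2 at an unadjusted p under 0.05 and 3 with ADX wholly below sham, and a median of -0.13. Its sums were 2290.4 to 2649 CPM in ADX and 2390.1 to 3125 CPM in sham, with sham library 2 the highest of the 6 libraries for 10 of the 16 genes and ADX library 2 the lowest for 7. The osteoblast and bone matrix list had 13 of 15 negative and a median of -0.10, with sums of 4161 to 5686 CPM in ADX and 4821 to 5477 CPM in sham. The part of these cells in the folding genes was not tested.

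The promoters of some members carry the stress response element of this compartment, and those stretches are shown because these members include Hspa5 and Calr, a pair that DESeq2 called. Of the 15 members with an entry in the RefSeq promoter table (GRCm38.p6, 250 bases before to 50 after the start of each gene), 6 held, on either strand, the letters CCAAT followed by 9 bases of any kind and CCACG, against 37 of 27025 genes (0.137%). A match describes the letters alone and says nothing of a bound factor. In Hspa5 the 250 bases before the RefSeq start are given, and in the other genes 30 bases around the match. All are 5′ to 3′ on the strand of the gene. Capitals mark the match, which is on the opposite strand where it begins with CGTGG:
Hspa5 (chr2:34771840-34772089, plus strand): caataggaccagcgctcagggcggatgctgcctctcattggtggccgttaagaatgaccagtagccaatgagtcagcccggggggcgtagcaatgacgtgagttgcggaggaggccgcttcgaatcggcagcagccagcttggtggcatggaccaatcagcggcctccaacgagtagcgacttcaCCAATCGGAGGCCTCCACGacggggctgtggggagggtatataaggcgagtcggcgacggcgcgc
Hsp90b1, first match (chr10:86705633-86705662, minus strand): acaagcCCAATCGCAAGGAGCCACGcttcg
Hsp90b1, second match (chr10:86705528-86705557, minus strand): agagtgCGTGGTGAGGCACGATTGGtgagt
Calr (chr8:84847070-84847099, minus strand): acaacgCGTGGTCGACCCTCATTGGcccat
Canx (chr11:50325795-50325824, minus strand): tattgaCCAATCACCACGCTCCACGaagaa
Pdia6 (chr12:17266485-17266514, plus strand): cagagaCCAATGAAAGGCGGCCACGgcgtg
Creld2 (chr15:88819514-88819543, plus strand): gcttctCGTGGCGAGCCTCAATTGGtccac

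Among the chaperones, Hspa5 (chr2:34771970-34777547 of mm10), which encodes BiP, the main Hsp70 chaperone of this compartment, had 794, 706 and 704 CPM in the ADX libraries, against 860.3, 997 and 918 CPM in the sham libraries. The highest ADX library was below the lowest sham library, and sham library 1 was the nearest of the sham libraries to ADX. Its log2 fold change was -0.33 ± 0.07 (SE), an ADX mean of 79.4% of the sham mean, with an unadjusted p of 5.4e-05 and an adjusted p of 0.24 in edgeR and an adjusted p of 0.0072 in DESeq2. Hsp90b1, which encodes the endoplasmic Hsp90 GRP94, had 864, 775 and 836 CPM in the ADX libraries, against 944, 1058 and 993 CPM in the sham libraries, with a log2 fold change of -0.27 ± 0.08. Here too the groups did not overlap, and sham library 2 was the highest of the 6. Calr, which encodes the calcium-binding lectin chaperone calreticulin, had 708, 652 and 708 CPM in the ADX libraries, against 776, 876 and 842 CPM in the sham libraries (-0.27 ± 0.06, DESeq2 adjusted p 0.017). For Canx, which encodes the membrane-bound relative calnexin, the log2 fold change was -0.11 ± 0.04. Hyou1, a large nucleotide exchange chaperone that acts with BiP, stood at -0.26 ± 0.06, with a DESeq2 adjusted p of 0.042.

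The cofactors of BiP were also lower in the ADX libraries. Sdf2l1, which acts with the BiP cochaperone Dnajb11, had 37.7, 32.9 and 34.4 CPM in the ADX libraries, against 41.3, 52.4 and 49.4 CPM in the sham libraries. Its log2 fold change, -0.44 ± 0.10, was the lowest of the list (DESeq2 adjusted p 0.023). The groups did not overlap, and sham library 1 lay closer to the highest ADX library than to the other sham libraries. Manf (chr9:106838312-106891979), a secreted protein that binds BiP, had 84, 79.1 and 82.2 CPM in the ADX libraries, against 94.2, 111 and 101 CPM in the sham libraries, a log2 fold change of -0.32 ± 0.07 and a DESeq2 adjusted p of 0.0095. Dnajb11 itself stood at -0.18 ± 0.05 and Dnajb9, another cochaperone, at -0.23 ± 0.07, both with groups apart. Creld2, a folding factor of the same compartment, had a log2 fold change of -0.34 ± 0.09. The disulfide isomerases Pdia3, Pdia4 and Pdia6 stood at -0.20 ± 0.07, -0.24 ± 0.06 and -0.28 ± 0.07.

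Of the regulators, Xbp1, the transcription factor of the unfolded protein response, had 152, 156 and 148 CPM in the ADX libraries, against 163, 185 and 185 CPM in the sham libraries, with a log2 fold change of -0.23 ± 0.05 and a DESeq2 adjusted p of 0.03. Every ADX library was below every sham library. Herpud1, a factor of the degradation of misfolded proteins, stood at -0.13 ± 0.05. The remaining pair of members belong to the branch of the stress response that runs through the translation initiation machinery. Ddit3, which encodes CHOP, had a log2 fold change of -0.08 ± 0.06 (unadjusted p 0.205) and Atf4 of -0.01 ± 0.05 (unadjusted p 0.888), and Atf4 was the 1 member whose groups overlapped. These 2 were the members that did not reach an unadjusted p of 0.05.

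**Figure D2:**
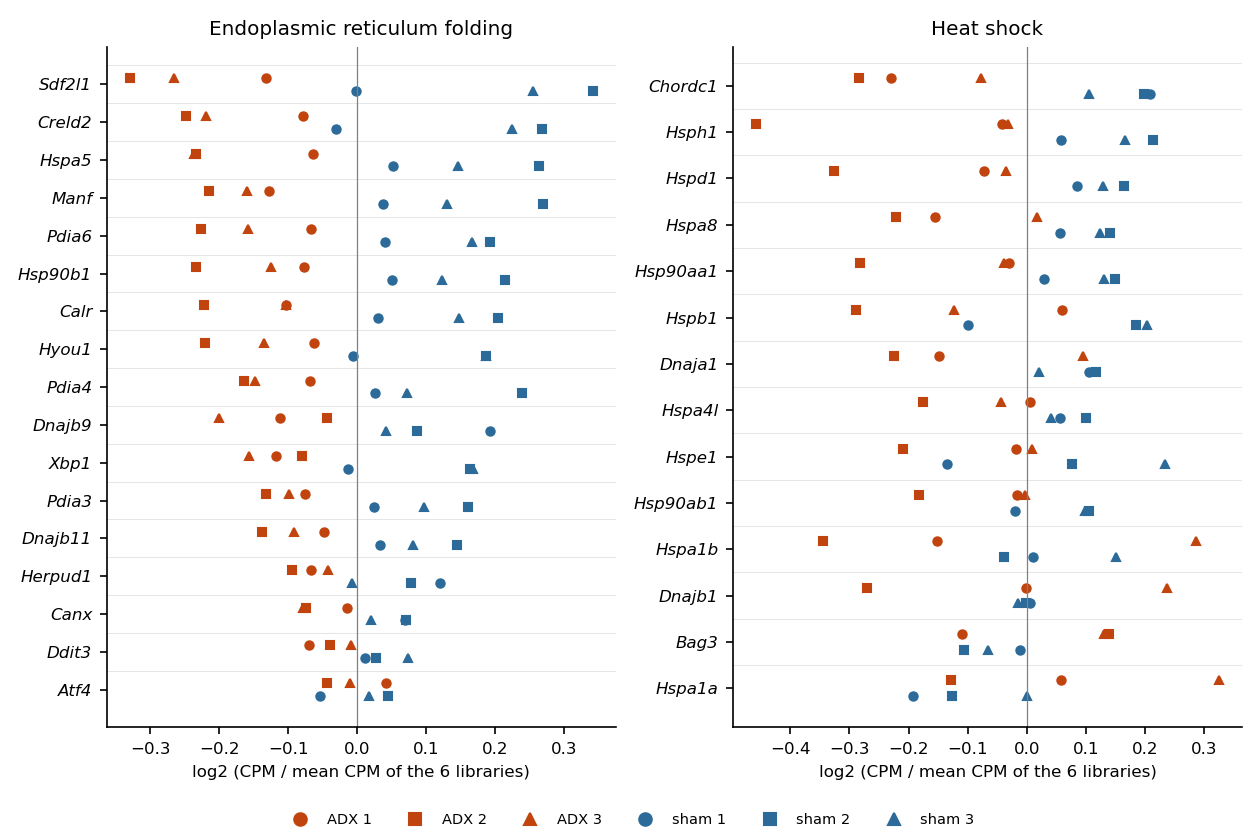
CPM of each library divided by the mean of the 6 CT16 libraries (log2 scale) for the 17 endoplasmic reticulum folding genes (left) and 14 heat shock genes (right), ADX in orange above sham in blue within each gene, ordered by log2 fold change. The ADX points lie left of the sham points in 16 of the 17 folding genes, with sham 1 nearest to them.

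The order of the libraries bears on the size of this difference. Sham library 1, the 1 sham library without raised pituitary or choroid plexus sums, was the lowest sham library for 14 of the 17 folding genes, and sham library 2, with the choroid plexus transcripts, was the highest of all 6 libraries for 13. Sham library 1 still lay above all 3 ADX libraries for 16 genes. Without ADX library 2 and sham library 3 the median log2 fold change was -0.22, with 16 of 17 genes negative. In that set 15 had an unadjusted p under 0.05 (4.24% of all tested genes in either direction). Without sham library 2 as well the median was -0.13, with 16 of 17 negative. The log2 fold change of Hspa5 was then -0.20 in place of -0.33, that of Sdf2l1 -0.20 in place of -0.44, and that of Dnajb9 -0.35 in place of -0.23. The part of the choroid plexus transcripts in the higher sham levels was not tested. Leaving out any 1 of the CT16 libraries gave list medians from -0.28 to -0.23.

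The median of the folding genes was nearer to 0 at the other times. Their median log2 fold change was -0.03 at CT04, 0.00 at CT08, -0.03 at CT12, -0.24 at CT16, -0.09 at CT20 and -0.03 at CT24. At an unadjusted p under 0.05, 3 of the 17 were lower in ADX at CT04 (5.39% of all tested genes), 0 at CT08 (1.65%), 1 at CT12 (3.12%), 15 at CT16 (3.92%), 6 at CT20 (3.09%) and 0 at CT24 (2.9%). In the test of the CT16 difference against the mean of the other 5, 13 of the 17 genes had an unadjusted p under 0.05, all negative, where 5.34% of all tested genes had one, 2.73% negative. None passed the adjusted threshold (lowest adjusted p in the list 0.917 in edgeR). Over all genes the same test called 0 in edgeR (0%, lowest adjusted p 0.908), 0 in DESeq2 and 0 in limma-voom, with 1205 at an unadjusted p under 0.05 in edgeR. For Hspa5 this difference was -0.26 ± 0.08 on the log2 scale, with an unadjusted p of 0.0024. The level of Hspa5 itself was highest at CT16 in both groups. It averaged 433 ± 25.3 CPM in ADX and 478 ± 33.3 CPM in sham at CT04 and 410.2 ± 20.6 CPM in ADX and 417 ± 10.7 CPM in sham at CT08 (SD, n = 3 each). It averaged 427 ± 6.16 CPM in ADX and 442 ± 22.6 CPM in sham at CT12 and 735 ± 51.1 CPM in ADX and 925 ± 68.5 CPM in sham at CT16. At CT20 the means were 680.1 ± 75.6 CPM in ADX and 750 ± 57.1 CPM in sham, and at CT24 458 ± 7.02 CPM in ADX and 468 ± 13.2 CPM in sham.

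Heat shock genes, which encode chaperones of the cytosol, nucleus and mitochondria, were mixed. Of 14 genes, 11 had a negative log2 fold change, 7 at an unadjusted p under 0.05 (3.92% of all tested genes). For 6 the ADX libraries lay wholly below the sham libraries (6.49% of all tested genes), and the median was -0.15. Chordc1 (chr9:18292125-18317442), a zinc-binding cochaperone of Hsp90, had 57.5, 55.3 and 63.8 CPM in the ADX libraries, against 77.8, 77.3 and 72.4 CPM in the sham libraries. Every ADX library was below every sham library, and the sham libraries lay close together. Its log2 fold change was -0.36 ± 0.07, with an unadjusted p of 1.3e-05 and an adjusted p of 0.094 in edgeR and an adjusted p of 0.0033 in DESeq2, and it was -0.36 without the 3 libraries that held other tissue. Its difference from the mean of the other 5 times was -0.34 ± 0.08 (unadjusted p 1.2e-04), among the 5 smallest p-values on the negative side of that test.

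Hspd1, the mitochondrial chaperonin Hsp60, had 188, 158 and 193 CPM in the ADX libraries, against 209.9, 222 and 216 CPM in the sham libraries (-0.27 ± 0.06, DESeq2 adjusted p 0.017), with groups that did not overlap. Hsph1, an Hsp110 exchange factor, stood at -0.31 ± 0.11, Hspa8, the constitutive Hsp70, at -0.22 ± 0.07 and Hsp90aa1, an Hsp90 of the cytosol, at -0.22 ± 0.07. St13, a cochaperone of Hsp70 outside the list, had 155, 149 and 151 CPM in the ADX libraries, against 177, 175 and 170 CPM in the sham libraries (-0.20 ± 0.05, DESeq2 adjusted p 0.039). The strongly stress-induced Hspa1a, Hspb1 and Dnajb1 stood at 0.20 ± 0.20, -0.21 ± 0.14 and 0.01 ± 0.09, each with overlapping groups, and reads of Hspa1a may be shared with its near-identical copy Hspa1b. ADX library 2, with the muscle transcripts, was the lowest of the 6 libraries for 12 of the 14 genes. Without this library alone 3 genes had an unadjusted p under 0.05 (1080 of all 22556 tested genes) and the list median was -0.09. Without it and sham library 3 the median was -0.09, with 2 genes at an unadjusted p under 0.05 (4.24% of all tested genes). Without sham library 2 as well the median was -0.03. The part of the muscle transcripts in these levels was not tested.

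A heat shock element, searched on both strands as GAA, TTC and GAA in turn with 2 bases of any kind between them, occurred in the promoters of 4 of 11 heat shock members with an entry (Hsph1, Hspd1, Hspe1 and Chordc1), against 0.662% of all promoters, and in none of the 15 endoplasmic reticulum members. The 30 bases around the matches in the pair of members that DESeq2 called are shown for comparison with the element above, 5′ to 3′ on the strand of the gene, from RefSeq GRCm38.p6. Capitals mark the matches, which overlap one another. Those of Chordc1 span its RefSeq start, which lies inside the annotated gene given above:
Hspd1 (chr1:55088053-55088082, minus strand): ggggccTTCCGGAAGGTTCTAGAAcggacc
Chordc1 (chr9:18292259-18292288, plus strand): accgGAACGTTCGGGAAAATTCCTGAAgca

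Besides the members of these lists, DESeq2 called 12 genes, all 20 of its calls being lower in ADX with groups apart. P4ha1, a subunit of the prolyl hydroxylase that modifies collagen in the endoplasmic reticulum, had 73.4, 66.6 and 73.9 CPM in the ADX libraries, against 87, 103 and 95.3 CPM in the sham libraries (-0.41 ± 0.09, DESeq2 adjusted p 0.0095). Mlec, which encodes the endoplasmic lectin malectin, had a log2 fold change of -0.16 ± 0.04. Slc6a4, the serotonin transporter, had 39.2, 39.9 and 45 CPM in the ADX libraries, against 56.6, 66.1 and 71.6 CPM in the sham libraries (-0.65 ± 0.16), with sham library 3 the highest. Gucy1a1, a subunit of the receptor of nitric oxide, stood at -0.36 ± 0.09, Cdk17, a cyclin-dependent kinase, at -0.23 ± 0.05, Arrdc3, an arrestin family member, at -0.23 ± 0.05, Snap23, a protein of vesicle fusion, at -0.20 ± 0.05, Ppp1r12a, the myosin phosphatase targeting subunit, at -0.18 ± 0.04 and Ccnt2, a cyclin of transcription elongation, at -0.15 ± 0.04. Gh had 2.78, 2.22 and 4.35 CPM in the ADX libraries, against 4.64, 4.86 and 1180.3 CPM in the sham libraries, so that sham library 3 set its difference, and its log2 fold change without that library and ADX library 2 was -0.41. The last is a gene without a symbol in the annotation. All 20 had the same sign in both reduced sets of libraries, and 19 had an unadjusted edgeR p under 0.05 in the smaller reduction and 6 in the larger.

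Interferon-stimulated genes were higher on average in ADX, mainly through 1 library. Of 17 genes, 15 were higher in the ADX mean, 9 at an unadjusted p under 0.05 (4.03% of all tested genes). The list median was 0.38. For 4 genes the ADX libraries lay wholly above the sham libraries (7.1% of all tested genes). ADX library 1 was the highest of the 6 libraries for 16 of the 17 genes, and sham library 2 the lowest for 14. Without ADX library 1 the median was 0.18, with 1 gene at an unadjusted p under 0.05 (2278 of all 22556 tested genes). Without ADX library 2 and sham library 3 it was 0.54, with 10 genes at that p (4.24% of all tested genes in either direction). Without sham library 2 as well the median was 0.48.

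Mx1 (chr16:97447035-97462907), an antiviral GTPase, had 8.01, 3.71 and 7.67 CPM in the ADX libraries, against 3.4, 2.62 and 3.2 CPM in the sham libraries. ADX libraries 1 and 3 were more than 2 times as high as any sham library, and ADX library 2 was just above them. Its log2 fold change was 1.08 ± 0.28, with an unadjusted p of 7.3e-04 and an adjusted p of 0.322 in edgeR. Ifit1, which binds viral RNA, had 63, 16.9 and 27.5 CPM in the ADX libraries, against 21, 11.6 and 15.4 CPM in the sham libraries (1.16 ± 0.37), so that the groups overlapped and ADX library 1 stood apart. Ifit3, its partner, had 93, 24 and 33.9 CPM in the ADX libraries, against 28.8, 14.7 and 21.8 CPM in the sham libraries (1.20 ± 0.41), and its near-identical copy Ifit3b, with which it may share reads, stood at 1.24 ± 0.41. Mx2, listed in the annotation as a polymorphic pseudogene, and Oasl2, an oligoadenylate synthetase-like gene, stood at 1.10 ± 0.35 and 0.98 ± 0.37, both with groups that did not overlap. Rsad2, which encodes the antiviral enzyme viperin, stood at -0.01 ± 0.20 with overlapping groups.

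At the other times the median of the interferon list was -0.30 at CT04, -0.03 at CT08, 0.11 at CT12, -0.01 at CT20 and -0.06 at CT24. The CT16 difference against the mean of these had an unadjusted p under 0.05 in 9 of 17 genes, all positive, where 2.61% of all genes had one on that side, and an adjusted p of 0.917 at the lowest. The core of the interferon-stimulated response element, searched on either strand as GAAA, 2 bases of any kind and GAAA, occurred in 8 of the 12 members with an entry and in 3.99% of all promoters. The stretches of Ifit1 and Ifit3 are given, as these members had the highest log2 fold changes of the list, 5′ to 3′ on the strand of the gene from RefSeq GRCm38.p6, with the matches, all on the opposite strand, in capitals:
Ifit1 (chr19:34640779-34640818, plus strand): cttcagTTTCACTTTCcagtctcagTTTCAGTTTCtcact
Ifit3, first match (chr19:34583358-34583397, plus strand): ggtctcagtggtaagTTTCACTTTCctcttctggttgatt
Ifit3, second match (chr19:34583392-34583431, plus strand): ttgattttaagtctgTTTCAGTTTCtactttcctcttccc

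Genes known to be induced by glucocorticoids overlapped between ADX and sham at CT16. Of 28 genes, 15 had a positive and 13 a negative log2 fold change, and the median was 0.01. An unadjusted p under 0.05 was found for 0 (7.95% of all tested genes). Groups that did not overlap were found for 0 (13.6% of all tested genes). Fkbp5, a cochaperone that restrains the receptor, had 67.6, 55 and 60.7 CPM in the ADX libraries, against 81.3, 57.7 and 68.6 CPM in the sham libraries (-0.18 ± 0.21, unadjusted p 0.404). Tsc22d3, which encodes the glucocorticoid-induced leucine zipper, had 147, 129 and 145 CPM in the ADX libraries, against 168, 114 and 141 CPM in the sham libraries (-0.01 ± 0.12). Zbtb16, a zinc finger repressor, had 44.5, 39.9 and 49.1 CPM in the ADX libraries, against 55.5, 27.7 and 40.4 CPM in the sham libraries (0.11 ± 0.31). In all 3 genes sham library 1 was the highest of the 6, and in Tsc22d3 and Zbtb16 sham library 2 was the lowest, so that the sham libraries enclosed the ADX libraries.

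That order was common in the list, as sham library 1 was the highest of the 6 libraries for 18 of the 28 genes and sham library 2 the lowest for 18. With sham library 1 as the only sham library, without the 3 libraries that held other tissue, the median was -0.15. The log2 fold changes were then -0.34 for Fkbp5, -0.20 for Tsc22d3 and -0.24 for Zbtb16. Leaving out sham library 2 alone gave a median of -0.07 and leaving out sham library 1 alone 0.09. At CT12, the preceding time, the median of the same list was -0.27. The members at an unadjusted p under 0.05 in either direction were 3 of 28 at CT04 (9.3% of all tested genes), 2 at CT08 (4.28%), 16 at CT12 (5.41%), 0 at CT16 (7.95%), 3 at CT20 (7.49%) and 3 at CT24 (5.74%). Klf9, a transcription factor of the hormone response, Per1, a clock gene, and Sgk1, a kinase of sodium transport, stood at 0.02 ± 0.11, 0.22 ± 0.14 and -0.07 ± 0.09 at CT16, and the metallothioneins Mt1 and Mt2, which may share reads, at 0.03 ± 0.12 and -0.09 ± 0.18.

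Dusp1, a phosphatase of the mitogen-activated kinases, was the member with the smallest p in the test against the other times. It was the only 1 of the 28 genes at an unadjusted p under 0.05 there, where 5.34% of all tested genes had one. It had 42.8, 39.5 and 50 CPM in the ADX libraries, against 36.4, 35.7 and 43.2 CPM in the sham libraries, a log2 fold change of 0.20 ± 0.11 (unadjusted p 0.076) with overlapping groups. Its difference from the mean of the other 5 times was 0.52 ± 0.12, with an unadjusted p of 1.5e-04 and an adjusted p of 0.908 in edgeR. The log2 fold changes behind it were -0.05 at CT04, -0.28 at CT08, -0.47 at CT12, -0.44 at CT20 and -0.36 at CT24.

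**Figure D3:**
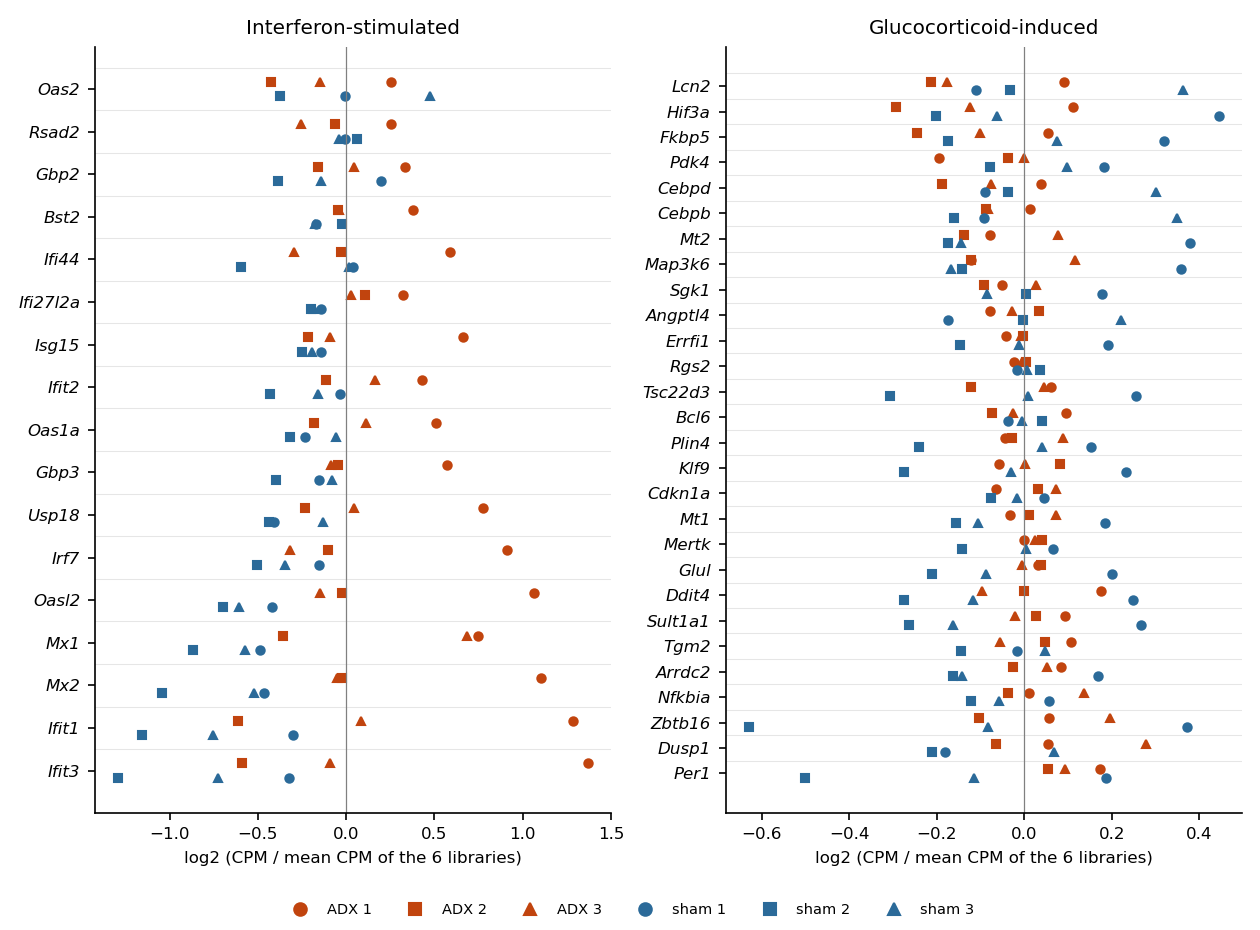
CPM of each library divided by the mean of the 6 CT16 libraries (log2 scale) for 17 interferon-stimulated (left) and 28 glucocorticoid-induced genes (right), ADX in orange above sham in blue, ordered by log2 fold change. ADX 1 is the rightmost point of 16 interferon genes, and sham 1 and sham 2 enclose the ADX points in many glucocorticoid-induced genes.

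Among the receptors and enzymes of corticosteroids, 4 of 9 had a positive log2 fold change. Nr3c1, the glucocorticoid receptor, had 122, 117 and 123 CPM in the ADX libraries, against 131, 124 and 132 CPM in the sham libraries (-0.10 ± 0.07, unadjusted p 0.153), with every ADX library below every sham library. Nr3c2, the mineralocorticoid receptor, stood at 0.20 ± 0.11, and the enzymes Hsd11b1 and Hsd11b2, which regenerate and inactivate the hormone, at -0.10 ± 0.11 and 0.13 ± 0.23. The corepressor gene Ncor1 had 265, 249 and 258 CPM in the ADX libraries, against 267, 291 and 289.9 CPM in the sham libraries. Its log2 fold change was -0.13 ± 0.04 (unadjusted p 0.003, adjusted p 0.437 in edgeR). Ncor1 was the only member at an unadjusted p under 0.05 (7.95% of all tested genes in either direction, 3.92% lower in ADX). Without the 3 libraries that held other tissue its log2 fold change was -0.03.

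In the core clock list 14 of 20 genes were higher in the ADX mean and the median was 0.08, with 1 gene higher at an unadjusted p under 0.05 (4.03% of all tested genes). This was Nr1d1, which encodes the repressor REV-ERB alpha, with 36.8, 39.95 and 27.8 CPM in the ADX libraries, against 27.5, 18.6 and 23.4 CPM in the sham libraries (0.58 ± 0.23, unadjusted p 0.016, adjusted p 0.563 in edgeR). The groups did not overlap, by a margin between ADX library 3 and sham library 1 that was far smaller than the spread within either group. Dbp, an output factor of the clock, had 37.7, 37.1 and 33.2 CPM in the ADX libraries, against 33.1, 21.4 and 24.9 CPM in the sham libraries (0.44 ± 0.26, unadjusted p 0.101), and Ciart and Cry2, repressors of the clock, stood at 0.33 ± 0.17 and 0.14 ± 0.07, all with ADX above sham. On the negative side, Cry1 stood at -0.12 ± 0.10 with every ADX library below every sham library, Per2 at -0.15 ± 0.13, Nfil3, a repressor that opposes Dbp, at -0.20 ± 0.13 and the activator gene Clock at -0.08 ± 0.07. Arntl and its relative Npas2, partners of the positive limb, stood at -0.11 ± 0.15 and 0.09 ± 0.25. Without sham library 1 alone, 6 clock genes had an unadjusted p under 0.05 (2406 of all 22556 tested genes). Sham library 2 was the lowest of the 6 libraries for 11 of the 20 genes. Without the 3 libraries that held other tissue the clock median was -0.05, and the log2 fold change of Nr1d1 was 0.23.

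**Figure D4:**
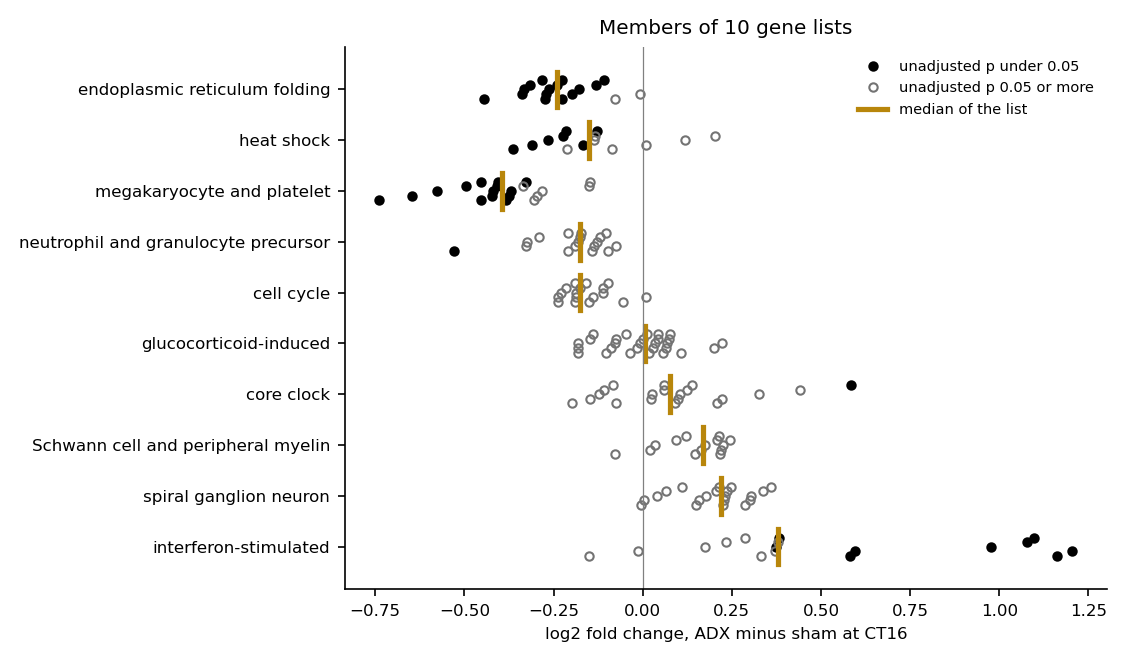
Log2 fold change (ADX minus sham at CT16) of each member of 10 gene lists, filled where the unadjusted p was under 0.05, with the list median as a vertical bar. Endoplasmic reticulum folding and platelet members lie left of 0 and most interferon members right of it, while the glucocorticoid-induced genes lie around 0.

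The cell type lists of the cochlea had medians near that of all genes, with exceptions for nerve. The hair cell list had a median of 0.03 with 11 of 20 genes positive, the stria vascularis list 0.05 with 13 of 15 and the spiral ligament fibrocyte list 0.07 with 6 of 10. For 5 of the 15 stria genes all ADX libraries lay above all sham libraries (7.1% of all tested genes), and the list median without the 3 libraries that held other tissue was -0.03. Myo7a, the hair cell myosin, had 46.1, 46.9 and 43.4 CPM in the ADX libraries, against 46.4, 76.8 and 59.2 CPM in the sham libraries (-0.42 ± 0.13, unadjusted p 0.0034), and its log2 fold change without the 3 libraries that held other tissue was -0.05. Genes of the spiral ganglion, the neurons that carry sound to the brain, had a median of 0.22 with 19 of 20 positive. An unadjusted p under 0.05 was found for 0 of them (7.95% of all tested genes). Nefh, the heavy neurofilament, had 540.4, 671 and 636 CPM in the ADX libraries, against 617, 489 and 475 CPM in the sham libraries (0.22 ± 0.13). ADX library 2 was the highest library for 13 of these genes and sham library 3 the lowest for 11, and without both and sham library 2 the median was -0.09. Schwann cell genes had a median of 0.17 and, without the same 3 libraries, -0.07. Sham library 1, then the only sham library, was the highest sham library for 15 of the 20 ganglion genes and 14 of the 14 Schwann cell genes.

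Neutrophil precursor and cell cycle genes had lower means in ADX, and both medians depended on the libraries kept. The neutrophil and granulocyte precursor list had 17 of 17 genes negative, a median of -0.18 and 1 at an unadjusted p under 0.05 (3.92% of all tested genes), and sham library 3 was the highest library for 17 of them. Without sham library 3 alone the median was -0.05, and without it and ADX library 2 it was 0.00. ADX libraries 2 and 3 lay below all sham libraries for 11 and 10 of the 17 genes. The cell cycle list had 16 of 17 genes negative and a median of -0.18, with ADX library 2 the lowest library for all 17. Without that library and sham library 3 the median was -0.04. ADX library 3 also lay below all sham libraries for 16 of the 17 genes, while ADX library 1 was the highest of the 6 for 9. Without ADX library 1 alone the median was -0.30. The B lymphocyte list, in turn, had 14 of 15 genes positive and a median of 0.09. It had 0 at an unadjusted p under 0.05 (7.95% of all tested genes). ADX library 3 was the highest of the 6 libraries for 12 of these genes, and without it the median was 0.01.

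Among single genes of at least 1 CPM with groups apart and an unadjusted p under 0.05, the highest log2 fold change was that of Alb, which encodes serum albumin, with 7.18, 0.317 and 0.353 CPM in the ADX libraries, against 0.0693, 0.125 and 0.0772 CPM in the sham libraries, a value set by ADX library 1. The other 9 of the 10 highest were the interferon genes Ifit3b, Mx1, Mx2 and Oasl2, the glutamate receptor gene Grin2b (0.789, 1.63 and 1.73 CPM in ADX and 0.762, 0.457 and 0.733 CPM in sham) and the immunoglobulin segments Ighv6-7, Igkv4-68, Igkv4-72 and Igkv8-19, whose reads the counting may have split among near-identical copies. The 10 lowest included Gh through sham library 3, and Gmnc, a regulator of ciliated cells, and Msx1, a homeobox gene, through sham library 2, with 0.188, 0.0906 and 0 CPM in ADX and 0.381, 7.18 and 0.309 CPM in sham for Gmnc and 1.28, 1.22 and 0.848 CPM in ADX and 2.53, 17.2 and 1.7 CPM in sham for Msx1. Slc18a2, the vesicular monoamine transporter, had 5.49, 4.98 and 4.49 CPM in the ADX libraries, against 7.1, 8.89 and 8.99 CPM in the sham libraries (-0.74 ± 0.16), and all 3 sham libraries were above all 3 ADX libraries. Gpd1, which supplies glycerol phosphate for lipid synthesis, had 35.6, 32.5 and 36.3 CPM in ADX and 36.8, 38.9 and 117 CPM in sham, a difference set by sham library 3, and the remaining 5 were Igkv1-122, Gabra4, Kcnh1, Ifi205 and the pseudogene Mid1-ps1, from -1.97 for Igkv1-122 to -0.91 for Ifi205.

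The smallest p-values on the side of higher ADX levels were small differences with tight replicates. Sp3os, a transcript antisense to Sp3, had 3.72, 3.85 and 3.85 CPM in the ADX libraries, against 2.77, 2.62 and 2.66 CPM in the sham libraries (0.50 ± 0.10, unadjusted p 1.0e-04, adjusted p 0.249 in edgeR). All 3 ADX libraries were above all 3 sham libraries, but with the strand setting of the counting unknown here its reads cannot be told from those of the overlapping gene. Cygb, which encodes cytoglobin, had 25.1, 29.1 and 27.8 CPM in the ADX libraries, against 23.2, 22.2 and 22.1 CPM in the sham libraries (0.28 ± 0.07). Fubp3, an RNA- and DNA-binding protein, stood at 0.21 ± 0.05, Aph1a, a subunit of gamma-secretase, at 0.19 ± 0.05 and Adar, an editor of double-stranded RNA that interferon also raises, at 0.19 ± 0.05. On the other side Bpifb1 and Dmbt1 had the smallest p-values through sham library 3 alone, with 0.263, 0.181 and 0.247 CPM in ADX and 0.346, 0.208 and 599 CPM in sham for Bpifb1, followed by Chordc1, Hspa5 and Manf.

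In the test against the other 5 times, the smallest p-values with a positive difference belonged to Cdkl1, a protein kinase gene, at 0.43 ± 0.09 (unadjusted p 8.7e-05), and then to Dusp1, Mx1, Aph1a and Fubp3. Cdkl1 had 13.8, 13.2 and 12.4 CPM in the ADX libraries, against 11.22, 10.3 and 10.8 CPM in the sham libraries at CT16, with all ADX libraries above all sham libraries. Those with a negative difference belonged to Chordc1, Lpar6, a receptor of lysophosphatidic acid, Ccnt2, St13 and Cdk17. Lpar6 had 17.4, 17.5 and 16.7 CPM in the ADX libraries, against 20.7, 20.18 and 19.4 CPM in the sham libraries, and its difference from the other times was -0.27 ± 0.06. None of these genes passed the adjusted threshold.

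**Figure D5:**
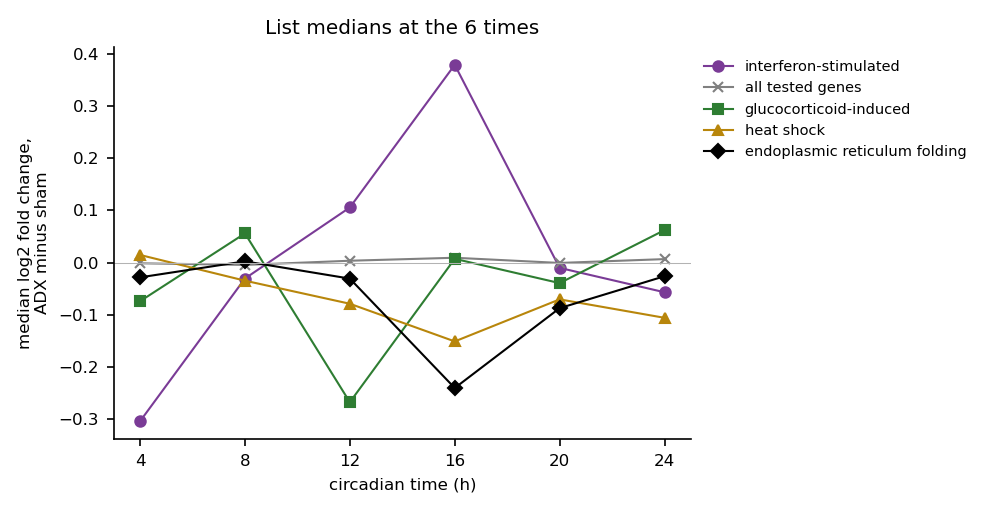
Median log2 fold change (ADX minus sham) of 4 gene lists and of all tested genes at the 6 circadian times (h). The interferon list is highest and the endoplasmic reticulum folding list lowest at CT16, while the glucocorticoid-induced list is lowest at CT12 and near 0 at CT16.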

How the data were processed

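Cochlear total RNA was made into stranded mRNA libraries and sequenced as single reads of 100 bases, per the labels' protocols. The deposited table holds the authors' raw counts per Ensembl gene for 39017 genes and 36 libraries, beside a deposited column of gene length (not used). STAR 2.4.0i and the build mm10 are named in the submitters' processing notes, while the counting program, annotation and strand option of the counting were not given in the sources used here. Columns were matched to labels by status and replicate number. In 30 of the 36 the header gives a time 1 h earlier than the label, 15 h for CT16, and the label was used. The table has 0 further columns of samples. Symbols came from GENCODE M21 (37693 IDs, 96.6%).

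Counts were analysed in edgeR 4.0.16 (R 4.3.3) with TMM scaling, filterByExpr by group, which left 22556 genes and removed 0.0779% of counts, 12 group means over all 36 libraries, the quasi-likelihood F test and Benjamini-Hochberg adjustment over all tested genes. CPM use TMM library sizes, and SE is that of the log2 fold change. The fit was tested on simulated data. DESeq2 1.42.0 and limma 3.58.1 (voom) were alternatives, as were no filter, no TMM, a replicate block, the 6 CT16 libraries alone, muscle and pituitary scores as covariates, and leaving out libraries. The removal of 3 libraries and the lists of choroid plexus (12 genes) and platelet genes (20 genes) were chosen after values were seen, and all other members and lists with earlier results of these data known. In the interferon list, 1 gene is not reported here and enters no list value.

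Named genes were any past the adjusted threshold, those DESeq2 called, the 10 highest and 10 lowest log2 fold changes with a mean of at least 1 CPM, an unadjusted p under 0.05 and groups apart, the 5 smallest p-values in each direction of both tests, all hormone and clock genes, and up to 4 per other list. Other list members are named by their role. Figures were drawn with matplotlib 3.10.9.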

Additional observations from a re-analysis of the deposited data

How the results depend on the processing

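The count of 0 genes past the adjusted threshold became 20 in DESeq2, 2 without a filter on low counts (Bpifb1 and Dmbt1, through sham library 3) and between 0 and 5 when 1 of the 36 libraries was left out, with 5 without sham CT16 library 1 and 2 without sham CT16 library 2. It stayed at 0 in the other alternatives, limma-voom, no TMM, the 6 libraries alone and the covariates among them. The 1794 genes at an unadjusted p under 0.05 became 957 without ADX library 2 and sham library 3, 878 without sham library 2 as well, and between 1080 (without ADX CT16 library 2) and 2406 (without sham CT16 library 1) when 1 library was left out. The cause was not tested. The test against the other times called 0 genes in every alternative in which it was run. Of the 1794 genes 50.7% had a higher level in ADX, against 59.7% without TMM and 46.7% in DESeq2. Of 11790 values of 262 named genes under 45 alternatives, 207 had another sign and 27 passed the adjusted threshold, while 16 of the 17 folding genes kept their sign throughout, all but Atf4. The list median changed sign in some alternative for 30 of 41 lists. Replicate numbers do not pair the libraries: deviations of same-numbered CT16 libraries correlated at -0.071, 0.006 and -0.011, and the replicate block gave 0 calls and 1781 genes at an unadjusted p under 0.05. There were 3 libraries per group, and 1 sham library without raised pituitary or choroid plexus sums, which was the highest for most oligodendrocyte and astrocyte genes. Small differences can therefore not be resolved, at a depth of at least 21908906 counts per CT16 library.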

Other observations

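Genes of megakaryocytes and platelets, a list written after their values were seen and so described with no weight of its own, had lower means in ADX at CT16. All 20 had a negative log2 fold change, 14 at an unadjusted p under 0.05 in edgeR (3.92% of all tested genes). For 18 the ADX libraries lay wholly below the sham libraries (6.49% of all tested genes). The median was -0.39, against 0.01 over all tested genes. Pf4, which encodes a platelet chemokine, had 93.7, 102 and 92.9 CPM in the ADX libraries, against 123, 124 and 149 CPM in the sham libraries (-0.45 ± 0.17). Ppbp, another platelet chemokine gene, had 316, 335 and 314 CPM in the ADX libraries, against 385, 425 and 482 CPM in the sham libraries (-0.42 ± 0.18). Itga2b, an integrin of the fibrinogen receptor, stood at -0.38 ± 0.16, Vwf, the von Willebrand factor, which endothelium also expresses, at -0.33 ± 0.13, F5, coagulation factor V, at -0.58 ± 0.17 and Treml1, a receptor of platelet granules, at -0.45 ± 0.17. Slc6a4 and Slc18a2, which load serotonin into platelets and their granules, were members of this list too.

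Sham library 3, with the pituitary transcripts, was the highest of the 6 libraries for 19 of the 20 genes, and sham library 1 was the lowest sham library for 17 while still above all ADX libraries for 18. Without sham library 3 alone 3 genes had an unadjusted p under 0.05 (1338 of all 22556 tested genes). Without sham library 3 and ADX library 2 the median was -0.33, with 3 genes at an unadjusted p under 0.05 (4.24% of all tested genes). Without sham library 2 as well, with sham library 1 as the only sham library, the median was -0.29. The median was -0.23 at CT04, 0.13 at CT08, -0.05 at CT12, -0.24 at CT20 and -0.28 at CT24. The CT16 difference against the mean of these had an unadjusted p under 0.05 in 3 of the 20 genes, against 5.34% of all tested genes in either direction and 2.73% negative. The sodium transport list had 7 of 12 genes positive and a median of 0.07, and the extracellular matrix list 13 of 19 negative and -0.04. Each had 1 gene at an unadjusted p under 0.05 (7.95% of all tested genes), Scnn1g and Thbs1. Scnn1g, a subunit of the epithelial sodium channel, had 3.46, 4.67 and 3 CPM in the ADX libraries, against 2.15, 2.24 and 2.59 CPM in the sham libraries (0.67 ± 0.21, unadjusted p 0.0032, adjusted p 0.437 in edgeR), with all ADX libraries above all sham libraries. Thbs1, a matrix protein that platelets also carry, had 344, 378 and 400 CPM in the ADX libraries, against 461, 467 and 524 CPM in the sham libraries (-0.37 ± 0.12).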
